A study of Mus musculus with 6 samples.

Results

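Transcripts of 10 genes that mark cortical interneurons or make GABA were read from the cerebral cortex of mice, out of 22527 genes on Affymetrix expression arrays. The members were *Gad1*, *Gad2*, *Pvalb*, *Sst*, *Vip*, *Npy*, *Calb1*, *Calb2*, *Cck* and *Reln*, and they were found by their gene symbol. They were chosen with earlier results of these data known. All 10 genes were present, with 16 of the 45077 probe sets, which are groups of short probes that report on a transcript. The 3 groups held 2 mice each, all male and 16 weeks old by the labels. The paper describes mice of that age that were then acclimatised, treated and tested, so they were older when the tissue was taken. It also states that all animals were given BrdU, a label of dividing cells, in their drinking water during the treatment. SAMR1, a senescence-resistant strain with normal aging, received water. SAMP8, a strain prone to accelerated senescence that is not transgenic, received either water (SAMP8 control) or STEE, an ethanolic extract of sugarcane tops, by mouth at 20 mg/kg (STEE-fed SAMP8). Water or extract was given for 30 days and through the 8 days of behavioral tests that followed. The deposited values are log2 signals averaged by the authors over a group and rounded to 2 decimals. No value of a single mouse and no spread between mice entered the results, so no difference below carries an error or a test, and each is a description of 2 mice against 2 mice.

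Interneurons are the inhibitory neurons of the cortex, and they release GABA, which glutamate decarboxylases make from glutamate. They fall into classes that are told apart by what else they express. Fast-spiking basket and chandelier cells carry parvalbumin, cells that target dendrites carry somatostatin, and cells that mostly inhibit other interneurons carry vasoactive intestinal peptide, often with calretinin or cholecystokinin. Neurogliaform cells carry reelin or neuropeptide Y. In cortical tissue as a whole, fewer cells of a class and less RNA per cell cannot be told apart.

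In SAMP8 control, *Vip*, *Npy* and *Reln* exceeded their SAMR1 signals by 0.87, 0.47 and 0.44 on the log2 scale, and these 3 of the 10 members lay at least 1.2-fold higher, a log2 difference of 0.26. Over all 22527 genes, 3.68% were at least 1.2-fold higher and 3.19% at least 1.2-fold lower in SAMP8 control, and no member was at least 1.2-fold lower. In STEE-fed SAMP8 against SAMP8 control, *Calb2* was lower by 0.73, and it was the 1 member at least 1.2-fold away, where 0.923% of all genes were at least that much lower and 1.1% higher. The median difference of the 10 members was 0.21 (log2) between the strains and -0.015 between the SAMP8 groups, and the median of all genes was 0 in both. The 2 arrays of SAMP8 control serve in both, so that an error in them enters with opposite signs. Each gene was read from its brightest probe set on average over the groups, and all 10 of these lay above the median signal of the array, 4.15 on the log2 scale. The 23 nonspecific control probe sets had mean signals from 2.03 to 6.85. *Calb2*, with a mean of 6.62, lay below the highest of them, and signals below 6.85 given further on share this limit.

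**Figure D1:**
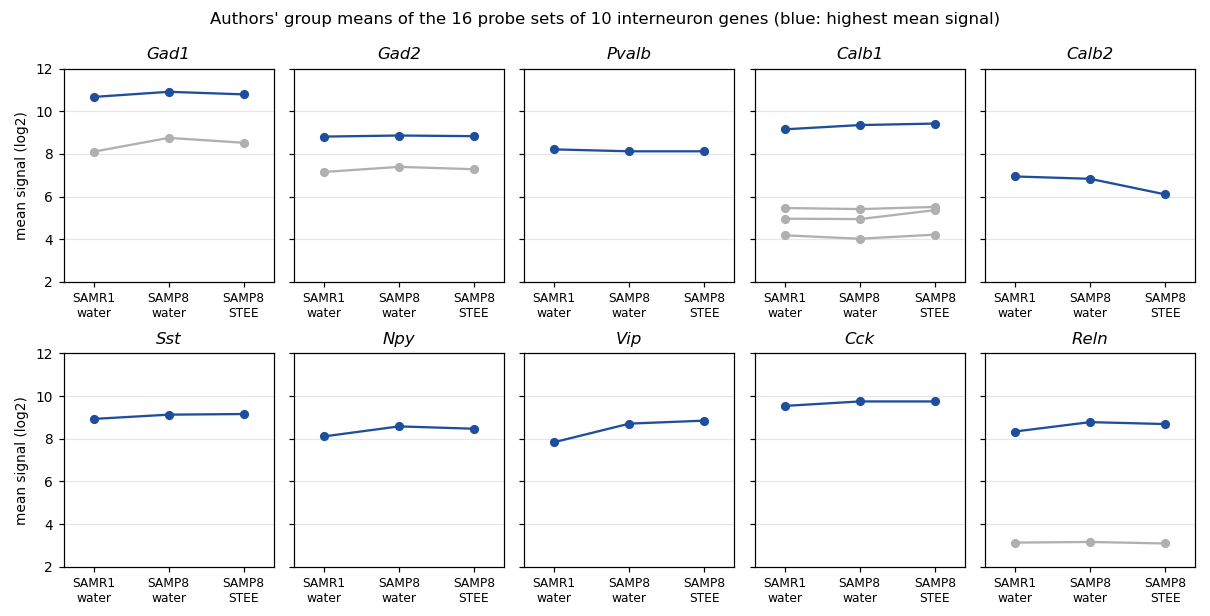
Authors' mean log2 signal (vertical axis) in SAMR1 with water, SAMP8 with water and SAMP8 with STEE (horizontal axis) for the 16 probe sets of the 10 genes. Each line is a probe set and blue marks the brightest of the gene; *Vip* goes from 7.84 in SAMR1 to 8.71 and 8.85, and *Calb2* from 6.83 in SAMP8 control to 6.10 with STEE.

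GABA synthesis was read from *Gad1*, which encodes GAD67, the enzyme found throughout the neuron, and *Gad2*, which encodes GAD65, the form concentrated at nerve terminals. The brighter *Gad1* probe set gave an authors' mean log2 signal of 10.67 in SAMR1, 10.91 in SAMP8 control and 10.79 with STEE. Its other probe set gave 8.10, 8.75 and 8.52. Both stood in the same order, lowest in SAMR1 and highest in SAMP8 control, but the size differed: SAMP8 control was higher than SAMR1 by 0.24 at the former and by 0.65 at the latter. With STEE the signals were lower than in SAMP8 control by 0.12 and 0.23.

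*Gad2* gave 8.81 in SAMR1, 8.86 in SAMP8 control and 8.83 with STEE at its brighter probe set, a difference of 0.05 between the strains that 32.5% of all genes matched or exceeded. The dimmer probe set gave 7.15, 7.39 and 7.28, a difference of 0.24. The order of the groups was the same for the 4 probe sets of the *Gad* genes, and 1 of them, the dimmer *Gad1* probe set, was at least 1.2-fold higher in SAMP8 control. The brighter *Gad1* probe set is near the upper end of the array, where the highest group mean of any probe set was 12.18. Why the probe sets of a *Gad* gene differed in the size of the strain difference was not tested.

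Of the calcium-binding proteins, *Pvalb*, encoding the parvalbumin of fast-spiking cells, stood at 8.21 in SAMR1, 8.12 in SAMP8 control and 8.12 with STEE. The strains differed by -0.09 and the SAMP8 groups by 0.00. *Pvalb* and *Calb2* were the members that lay lower in SAMP8 control than in SAMR1, neither by as much as 1.2-fold.

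*Calb1* encodes calbindin, a calcium buffer of many somatostatin cells and also of pyramidal neurons in the upper layers. Its brightest probe set gave 9.15 in SAMR1, 9.35 in SAMP8 control and 9.42 with STEE, so that SAMP8 control was higher by 0.20 and STEE-fed SAMP8 by another 0.07. The 3 dimmer *Calb1* probe sets did not share the strain difference. They differed by -0.05, -0.02 and -0.16 between SAMP8 control and SAMR1, and the mean over the 4 probe sets was -0.0075. With STEE all 4 lay higher than in SAMP8 control, by 0.07, 0.10, 0.42 and 0.19. The 0.42 came from a probe set with signals of 4.96, 4.94 and 5.36 in SAMR1, SAMP8 control and STEE-fed SAMP8.

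*Calb2*, encoding the calretinin of many bipolar VIP cells, gave 6.94 in SAMR1, 6.83 in SAMP8 control and 6.10 with STEE at its only probe set. The water-fed groups lay close together and the STEE-fed group lay below both. STEE-fed SAMP8 was lower than SAMP8 control by 0.73 (log2), 1.66-fold, and lower than SAMR1 by 0.84, 1.79-fold. Of all 22527 genes, 16 (0.071%) were at least as much lower with STEE as *Calb2*, itself included. *Vip*, which marks an overlapping class of cells, was higher with STEE by 0.14, short of 1.2-fold, and 7.73% of all genes were at least as much higher.

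Genes typical of the olfactory bulb, a structure rich in calretinin cells that adjoins the front of the cortex, stood lower with STEE as well. Of 6 such genes all were lower in the STEE-fed group than in its controls, 5 of them by at least 1.2-fold, with a median of -0.52 (log2). Over all genes, 0.923% were at least 1.2-fold lower with STEE. The summed linear signal of the 6 genes was 93.7 in SAMR1, 132 in SAMP8 control and 88.2 with STEE. Of them, 4 lay at or below the median signal of the array. *Th*, the tyrosine hydroxylase of dopaminergic bulb cells, stood at 3.92, 3.81 and 3.23, close together in the water-fed groups and lower with STEE, as *Calb2* did. *Cdhr1* and *Eomes*, expressed by mitral and tufted cells of the bulb, had their highest signal in SAMP8 control: 4.82, 5.67 and 4.90 for *Cdhr1* and 4.19, 4.75 and 4.14 for *Eomes*. Between the strains, 4 of the 6 were at least 1.2-fold higher in SAMP8 control, against 3.68% of all genes. The part of bulb tissue in the *Calb2* difference was not tested.

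The neuropeptides differed more between the strains than with STEE. *Vip* gave 7.84 in SAMR1, 8.71 in SAMP8 control and 8.85 with STEE. Both SAMP8 groups lay well above SAMR1, SAMP8 control by 0.87 (log2), 1.83-fold, and STEE-fed SAMP8 by 1.01, 2.01-fold. A strain difference at least as high was found for 108 genes (0.479%). *Vip* has a single probe set, so no other probe set of the array could be set beside it.

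*Npy* encodes neuropeptide Y, made by neurogliaform cells and by many somatostatin cells. It gave 8.11 in SAMR1, 8.58 in SAMP8 control and 8.47 with STEE. SAMP8 control was higher than SAMR1 by 0.47, 1.39-fold, which 260 genes (1.15%) matched or exceeded, and STEE-fed SAMP8 was lower than SAMP8 control by 0.11.

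*Sst*, the somatostatin gene, gave 8.93, 9.13 and 9.16 over the same groups, and *Cck*, the cholecystokinin gene, which pyramidal neurons also express, gave 9.54, 9.75 and 9.75. SAMP8 control was higher than SAMR1 by 0.20 for *Sst* and 0.21 for *Cck*, short of 1.2-fold, and the SAMP8 groups differed by 0.03 and 0.00. A strain difference as high as that of *Sst* was found for 6.45% of all genes.

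*Reln* encodes reelin, a large secreted glycoprotein that guides neuronal layering in development and is made by interneurons in the adult cortex. Its brighter probe set gave 8.34 in SAMR1, 8.78 in SAMP8 control and 8.69 with STEE, so that SAMP8 control was higher by 0.44 (log2), 1.36-fold, which 297 genes (1.32%) matched or exceeded. Its other probe set lay at 3.13, 3.16 and 3.09, below the median signal of the array, and differed by 0.03. The mean over both was 0.24, short of 1.2-fold.

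STEE-fed SAMP8 and SAMR1 share no array, and their difference is the sum of the other differences. *Vip*, *Npy*, *Reln* and *Calb1* were at least 1.2-fold higher in STEE-fed SAMP8 than in SAMR1, by 1.01, 0.36, 0.35 and 0.27, and *Calb2* at least 1.2-fold lower. With all probe sets of a gene averaged, *Reln* and *Calb1* were short of 1.2-fold at 0.16 and 0.19, and *Gad1* was past it at 0.27. Of all genes, 4.44% were at least 1.2-fold higher and 2.93% lower in this comparison. At their brightest probe sets, the signals of *Gad2* and *Pvalb* in STEE-fed SAMP8 were within 0.1 of those in SAMR1, at 0.02 and -0.09. The dimmer *Gad2* probe set differed by 0.13.

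**Figure D2:**
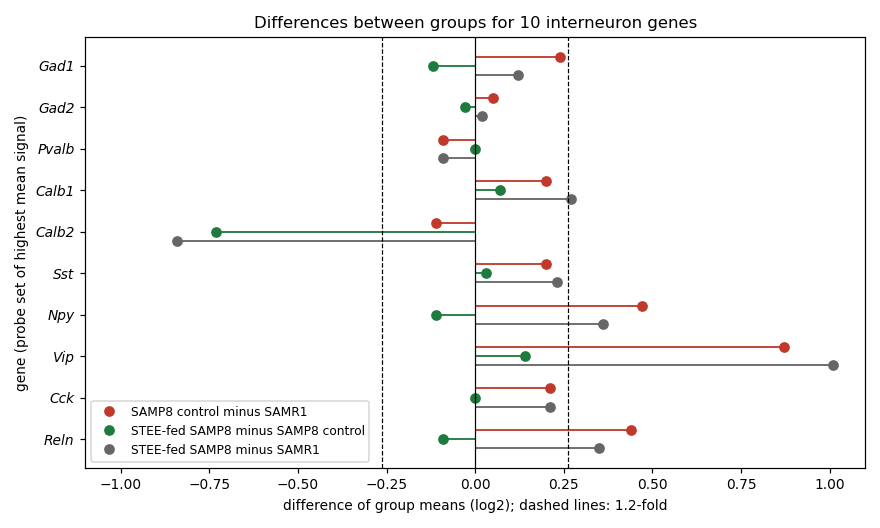
Difference of the authors' group means (horizontal axis, log2) for the 10 genes (vertical axis), each at its brightest probe set, with dashed lines at 1.2-fold. Red points stand for SAMP8 control minus SAMR1, where *Vip* lies at 0.87, green for STEE-fed SAMP8 minus SAMP8 control, where *Calb2* lies at -0.73, and grey for STEE-fed SAMP8 minus SAMR1.

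At 1.2-fold, bright genes differed more often than dim ones, and the members are bright. Among the 13001 genes with a mean signal of at least the array's median, 5.69% were at least 1.2-fold higher in the strain comparison, and 1.18% at least 1.2-fold lower with STEE than in SAMP8 control. By probe set, 4 of the 16 were at least 1.2-fold higher in SAMP8 control, those of *Vip*, *Npy*, the dimmer *Gad1* and the brighter *Reln* probe set, against 3.68% of all probe sets, and none was at least 1.2-fold lower, against 3.43%. In the STEE comparison 1 probe set, of *Calb1*, was at least 1.2-fold higher and 1, of *Calb2*, at least 1.2-fold lower, against 1.03% and 0.976% of all probe sets.

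**Figure D3:**
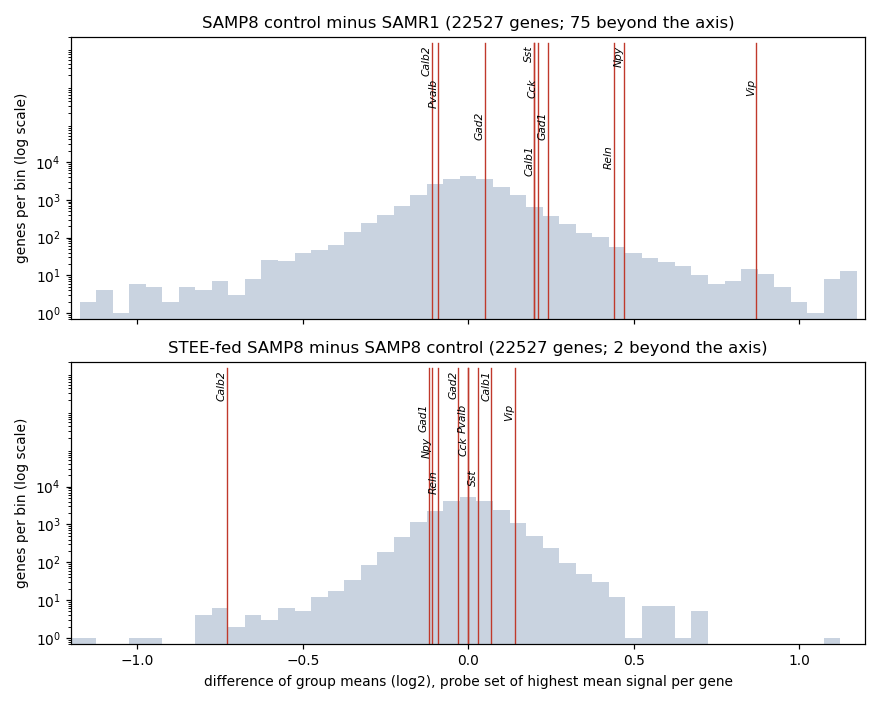
Number of genes (vertical axis, log scale) by difference of group means (horizontal axis, log2) between the strains (top) and between the SAMP8 groups (bottom), over 22527 genes, with red lines at the 10 members. In the former, 8 of the 10 members lie above 0; in the latter, *Calb2* lies at -0.73 and the others lie between -0.12 and 0.14.

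The promoters of *Vip*, *Npy* and *Reln*, the members at least 1.2-fold higher in SAMP8 control, are printed beside that of *Sst*, a neuropeptide gene that was not. Each is the RefSeq window of GRCm38.p6, the genome of C57BL/6J and not of SAMP8 or SAMR1, from 250 bases before to 50 bases after the gene's start. Capitals mark TGACG, the core of the cAMP response element that the factor CREB binds, on either strand. *Vip* lies at chr10:5638968-5639267 on the plus strand, *Npy* at chr6:49822460-49822759 on the plus strand, *Reln* at chr5:22344656-22344955 on the minus strand and *Sst* at chr16:23890795-23891094 on the minus strand.
Vip: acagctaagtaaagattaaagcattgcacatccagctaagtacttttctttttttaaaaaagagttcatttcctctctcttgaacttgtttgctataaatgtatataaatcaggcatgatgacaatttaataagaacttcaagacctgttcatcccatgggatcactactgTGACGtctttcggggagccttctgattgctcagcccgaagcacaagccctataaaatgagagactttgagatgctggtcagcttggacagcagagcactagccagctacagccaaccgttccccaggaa
Npy: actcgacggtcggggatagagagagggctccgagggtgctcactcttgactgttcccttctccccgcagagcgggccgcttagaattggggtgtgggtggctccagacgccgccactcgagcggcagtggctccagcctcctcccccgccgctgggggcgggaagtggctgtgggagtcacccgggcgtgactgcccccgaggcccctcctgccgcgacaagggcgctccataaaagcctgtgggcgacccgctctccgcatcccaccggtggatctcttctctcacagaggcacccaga
Reln: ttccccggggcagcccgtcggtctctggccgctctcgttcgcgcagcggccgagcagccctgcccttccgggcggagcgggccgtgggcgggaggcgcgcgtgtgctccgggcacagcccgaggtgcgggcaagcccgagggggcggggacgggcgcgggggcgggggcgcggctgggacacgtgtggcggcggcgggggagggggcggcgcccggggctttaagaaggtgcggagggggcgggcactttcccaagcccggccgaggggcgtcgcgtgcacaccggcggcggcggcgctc
Sst: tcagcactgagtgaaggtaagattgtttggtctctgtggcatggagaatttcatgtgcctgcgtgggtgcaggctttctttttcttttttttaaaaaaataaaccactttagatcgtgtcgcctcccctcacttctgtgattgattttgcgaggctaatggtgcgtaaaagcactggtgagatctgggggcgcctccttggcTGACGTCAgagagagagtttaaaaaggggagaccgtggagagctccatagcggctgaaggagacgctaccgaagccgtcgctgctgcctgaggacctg

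The full element, TGACGTCA, stood in the *Sst* window, 48 bases before the start, in 1 of the 9 windows listed for 8 members and in 1.79% of 32851 windows of the same length for all genes. It holds the core on both strands. The core alone stood in the windows of *Sst*, *Vip*, *Cck* and *Gad2*, and in 20.8% of all windows, both strands searched. In *Vip* it began 79 bases before the start, and TATAAA, the TATA box letters, began 30 bases before the start. TATAAA was found on either strand in 13.6% of all windows and, among the members, in those of *Vip* and *Gad1*. The windows of *Npy* and *Reln* did not hold the core, so members with and without these letters lay at least 1.2-fold higher in SAMP8 control.

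Beyond the members, 6 genes of GABA transport and breakdown were read. *Slc32a1*, the transporter that loads GABA into synaptic vesicles, was 8.13 in SAMR1, 8.28 in SAMP8 control and 8.25 with STEE. The breakdown enzymes *Abat*, GABA transaminase, and *Aldh5a1*, which oxidises its product, differed by -0.06 and -0.12 between the strains. *Slc6a11*, the mainly astrocytic GABA uptake transporter, was the 1 gene of the list at least 1.2-fold away, with 7.29 in SAMR1, 6.43 in SAMP8 control and 6.39 with STEE. It was lower in SAMP8 control by 0.86, and its other probe set, near the bottom of the array at 2.58 in SAMR1, differed by 0.07. No gene of the list was at least 1.2-fold away with STEE, where the differences ran from -0.05 to 0.03. Of all genes, 6.86% were at least 1.2-fold away in either direction between the strains and 2.02% with STEE.

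Of 13 transcription factors that specify or maintain interneurons, 3 were at least 1.2-fold higher and 1 at least 1.2-fold lower in SAMP8 control than in SAMR1. Over all genes, 3.68% were that much higher and 3.19% that much lower, and with STEE 0.923% were that much lower. The 3 higher factors were of the *Dlx* family, homeodomain factors of the ganglionic eminences from which interneurons arise. *Dlx1* gave 4.99, 5.58 and 5.07 over SAMR1, SAMP8 control and the STEE-fed group, *Dlx5* gave 4.77, 5.30 and 5.02, and *Dlx2* gave 5.47, 5.77 and 5.36. With STEE, in a comparison that shares the SAMP8 control arrays, *Dlx1*, *Dlx5* and *Dlx2* were lower by 0.51, 0.28 and 0.41, and no other gene of the list was at least 1.2-fold away. The highest signal of *Dlx1*, *Dlx5* and *Dlx2* was in SAMP8 control, as for *Cdhr1* and *Eomes* of the olfactory bulb. *Dlx6*, also on the list, gave 3.68, 3.89 and 3.90, and so was not highest in SAMP8 control. New interneurons are added to the bulb in the adult, and the part of bulb tissue was not tested. *Lhx6*, which marks parvalbumin and somatostatin cells, was 4.27, 4.48 and 4.49. *Nr2f2*, a factor of interneurons from the caudal eminence, was lower in SAMP8 control by 0.37, with 7.28, 6.91 and 6.73, and its dimmer probe sets differed by -0.25 to 0.02.

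A list of 23 further genes of interneuron classes had 5 members at least 1.2-fold higher and 1 at least 1.2-fold lower in SAMP8 control than in SAMR1, with a median of 0.06 (log2). Of all genes, 3.68% were that much higher and 3.19% that much lower, and with STEE 1.1% and 0.923%. *Crh*, corticotropin-releasing hormone, which many VIP cells make, was 5.04 in SAMR1, 5.84 in SAMP8 control and 6.15 with STEE. It was higher by 0.80 between the strains and by another 0.31 with STEE, where it was the 1 gene of the list at least 1.2-fold higher. *Lamp5*, a marker of neurogliaform cells, was higher in SAMP8 control by 0.56, with 9.23, 9.79 and 9.89, and *Ndnf*, another, by 0.34, with 4.71, 5.05 and 4.65. *Ndnf* was lower with STEE by 0.40, and by 0.11 at its dimmer probe set. *Penk* and *Tac1*, the genes of enkephalin and substance P, were higher in SAMP8 control by 0.72 and 0.43, and striatal projection neurons make both peptides. *Syt2*, a synaptotagmin of parvalbumin terminals, was lower by 0.28 at its brightest probe set, while its others were higher by 0.23 and 0.09. *Htr3a*, the serotonin receptor subunit of the class that includes VIP cells, was 4.99, 5.05 and 5.01.

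Marker genes of neighbouring brain regions were read as well. Between the strains, 3.68% of all genes were at least 1.2-fold higher in SAMP8 control and 3.19% at least 1.2-fold lower. All 7 striatal markers were at least 1.2-fold higher in SAMP8 control than in SAMR1, with a median of 0.61, and their summed linear signal was 1389 in SAMR1, 2188 in SAMP8 control and 2335 with STEE. All 7 lay above the array's median signal. *Drd1*, listed under its older symbol *Drd1a*, was higher by 0.89. The striatum is itself rich in GABA neurons and holds interneurons with *Npy*, *Sst* and *Pvalb*. With STEE the striatal median was 0.12 and none was at least 1.2-fold away, as 2.02% of all genes were in either direction.

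Of 6 thalamic markers, 5 were at least 1.2-fold lower in SAMP8 control than in SAMR1, with a median of -0.73 and a summed signal of 412 in SAMR1, 255 in SAMP8 control and 279 with STEE. *Tcf7l2*, a transcription factor of thalamic neurons, was lower by 0.97. Of 7 hypothalamic markers, 3 were at least 1.2-fold lower and none higher, and their summed signal was 242, 129 and 128. *Pmch*, the gene of melanin-concentrating hormone, was 5.79 in SAMR1 and 3.31 in both SAMP8 groups. With STEE the thalamic and hypothalamic medians were both 0, and 1 gene, the thalamic marker *Plekhg1*, was at least 1.2-fold away, higher by 0.42, with a difference of 0.00 at its dimmer probe set. How much of each region the dissected tissue held is not given in the sources used here. Its part in the strain differences of *Vip*, *Npy*, *Reln*, *Gad1* and *Slc6a11* was not tested. The 8 markers of excitatory cortical neurons all lay above the array's median signal. Between the strains, 1 of them was at least 1.2-fold higher in SAMP8 control, and their median was 0.10. The strain median was 0.21 for the interneuron members, 0.16 for the interneuron transcription factors and 0.06 for the further genes of interneuron classes. With STEE, 1 excitatory marker, *Tbr1*, was at least 1.2-fold higher than in SAMP8 control, by 0.29, against 1.1% of all genes. The STEE medians of these lists, in the same order, were 0.09, -0.015, -0.07 and 0.03.

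**Figure D4:**
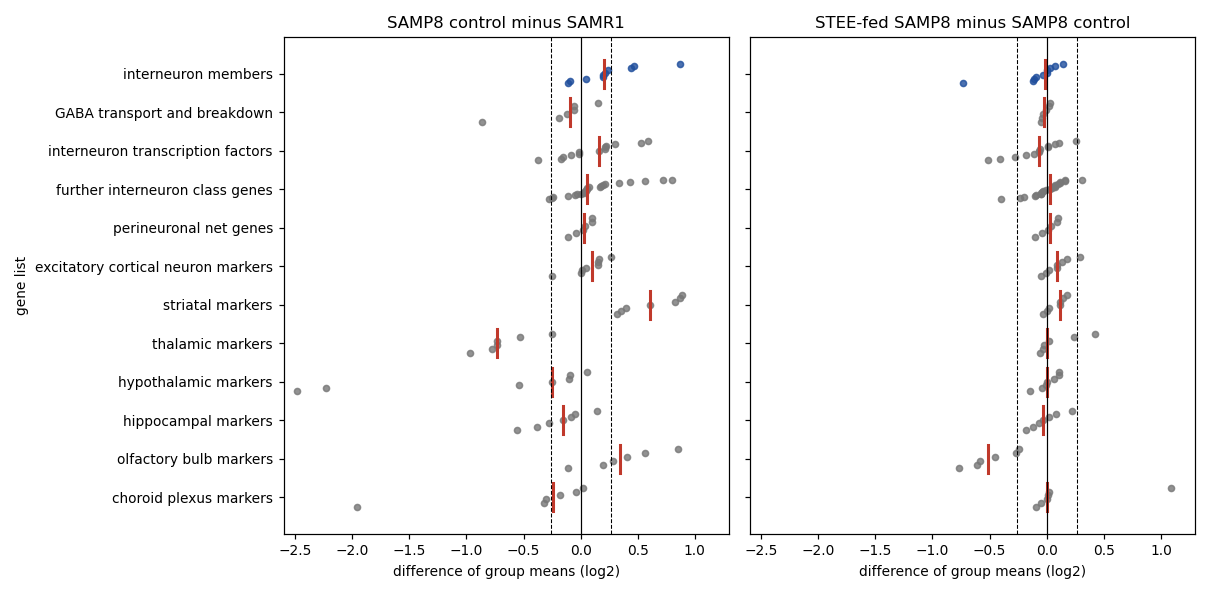
Difference of group means (horizontal axis, log2) for each measured gene of 12 lists (vertical axis), between the strains (left, SAMP8 control minus SAMR1) and between the SAMP8 groups (right, STEE minus water). Each point is a gene at its brightest probe set, blue marks the 10 interneuron members, red bars are list medians and dashed lines stand at 1.2-fold. Between the strains the striatal points lie at 0.32 to 0.89 and the thalamic points at -0.97 to -0.25; with STEE the olfactory bulb points lie at -0.77 to -0.24.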

How the data were processed

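RNA from the cerebral cortex of 6 mice, 2 in each group by the labels, was hybridised to 3′ arrays. Probe intensities were summarised by the authors with RMA in Expression Console, who then averaged each group in Transcriptome Analysis Console, and deposited bi-weight mean log2 signals to 2 decimals in a table for each of 2 comparisons. The genome build is not given in the sources used here. The signed linear fold changes, ANOVA p-values and FDR p-values in those tables are the authors' own comparisons and were not used. Differences of the deposited log2 means were taken for 3 pairs of groups, and rounding moves such a difference by at most 0.01. The SAMP8 control means of both tables were equal for all 45077 probe sets. Of these, 5694 carried no gene symbol, and the 1253 that list several symbols were counted under each. A gene was read from its probe set with the highest mean over the 3 groups and counted at 1.2-fold. With 2 mice a group and no spread, no test was run and the number of arrays limits the precision. Every value is given as a mean of the authors with no error.

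Named were all 10 members with every probe set, and genes of fixed lists at least 1.2-fold away (GABA transport and breakdown, interneuron transcription factors, further interneuron classes, perineuronal net, excitatory neurons, astrocytes, oligodendrocytes, microglia, endothelium, striatum, hippocampus, thalamus, hypothalamus, olfactory bulb, choroid plexus). A few more list genes are given by their values, chosen after these were seen. Members and lists were chosen with earlier results of these data known. Older symbols and promoter windows came from RefSeq (GRCm38.p6), where 8 of the 10 members had a window and *Calb1* and *Calb2* had none. Alternatives were the fold threshold, the probe set per gene, centring and a filter on dim probe sets. Counting was tested on simulated data. Python 3.11.15, numpy 2.4.6, pandas 2.3.3 and matplotlib 3.10.9 were used.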

Additional observations from a re-analysis of the deposited data

How the results depend on the processing

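At 1.1-fold in place of 1.2-fold, 7 members were higher (12.4% of all genes) and none lower (12.4%) between the strains, where 10 probe sets (25.9% of all) lay that far away in either direction. With STEE, 2 members, *Vip* and *Calb2* (15.2% of all genes), and 5 probe sets (16.2%) did. At 1.5-fold in either direction, 1 member (*Vip*; 1.16% of all genes) and 2 probe sets (0.876%) were past the threshold between the strains, 1 probe set (*Calb2*; 0.0799%) with STEE, and 2 members (1.18%) with 2 probe sets (1.02%) between STEE-fed SAMP8 and SAMR1. Averaging all probe sets of a gene moved the median of the members to -0.035 with STEE and to 0.20 in STEE-fed SAMP8 minus SAMR1, from -0.015 and 0.22. Between the strains, *Reln* at 0.24 was then short of 1.2-fold and *Gad1* at 0.45 was past it, beside *Vip* and *Npy*. Without the *Cck* probe set, whose name ends in a_at, the STEE median was -0.03. The other 36 alternatives of counts and medians stayed within 1.5 times the count or 0.01 of the median. Of 107 alternatives for single members, 106 kept their sign or a value of 0, and that of *Calb1* between the strains went from 0.20 to -0.0075 with all probe sets averaged. No paired analysis was possible because the values are group means, which carry no replicate number, and leaving out a mouse could not be done for the same reason. How far the mice of a group differed is unknown here.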

Other observations

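The perineuronal net is the extracellular matrix that surrounds many parvalbumin cells. Of its 6 genes measured here (*Acan*, *Hapln1*, *Hapln4*, *Bcan*, *Ncan* and *Vcan*), none was at least 1.2-fold away in any comparison. Over all genes, 6.86% were that far away between the strains, 2.02% with STEE and 7.38% in STEE-fed SAMP8 against SAMR1. A count of none in 6 is close to these shares. The strain differences of the 6 ran from -0.11 to 0.10 on the log2 scale. *Acan*, aggrecan, lay at 4.08 in SAMR1, 4.04 in SAMP8 control and 3.94 with STEE, below the median signal of the array. *Tnr* was not analysed here.

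Among other cell types, 4 of 6 oligodendrocyte markers were at least 1.2-fold lower in SAMP8 control than in SAMR1, against 3.19% of all genes. The median of the 6 was -0.33, and *Mog*, a myelin surface protein, was lower by 0.63. None of 6 astrocyte and none of 6 microglia markers was at least 1.2-fold away between the strains, and of 6 endothelial markers 1 was higher and 1 lower. With STEE none of these lists had a gene at least 1.2-fold away from SAMP8 control. Of all genes, 6.86% were that far away in either direction between the strains and 2.02% with STEE. Of 7 hippocampal markers 3 were at least 1.2-fold lower in SAMP8 control than in SAMR1, *Dsp*, a desmosome gene of dentate granule cells, by 0.56, and none was that far away with STEE. Of 6 choroid plexus markers 3 were at least 1.2-fold lower in SAMP8 control than in SAMR1. *Kcne2* and *Otx2* among them lay below the median signal of the array. *Ttr*, the transthyretin gene, was 10.20 in SAMR1, 8.24 in SAMP8 control and 9.33 with STEE. It was higher with STEE than in SAMP8 control by 1.09, the 1 marker of that list at least 1.2-fold away there.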
